A study of Mus musculus with 15 samples.

Results

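The Gimap genes encode GTPases of the immunity-associated protein family and were described here over 5 groups of sorted mouse bone marrow progenitors. All 8 members were measured (Gimap1, Gimap3, Gimap4, Gimap5, Gimap6, Gimap7, Gimap8 and Gimap9), out of 19937 genes with a single symbol on the array. Members were taken by gene symbol, and each was represented by 1 probe set, so that no choice between probe sets was needed. The family was chosen because Gimap6 falls from preGM to GMP in the control mice, and that contrast is therefore given as a description, without a test.

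The series looked for genes whose expression is altered in Cebpa-mutant myeloid progenitors before leukaemia arises. Female C57BL/6 mice were used, with RNA on Affymetrix arrays and 3 arrays per group, each from a separate animal within its group. PreGMs, the earlier progenitors, were sorted without Sca1, CD150, CD41, FcgRII or Endoglin on the surface, and GMPs, the granulocyte-macrophage progenitors that follow them, as FcgRII-positive cells; all sorted cells were lineage-negative and cKit-positive. The groups were preGM +/+ (cebpa +/+:Mx1Ce, as the label spells it), preGM fl/p30 and GMP fl/p30 (cebpa fl/p30; Mx1Cre), GMP fl/+ (cebpa fl/+; Mx1Cre) and GMP fl/BRM2 (cebpa fl/BRM2; Mx1Cre), all taken 3 weeks after the knockout. The floxed allele is the one that Cre removes, p30 is the allele that makes only the short C/EBPα isoform, and BRM2 carries a mutated basic region. All groups carry the Cre, whose Mx1 promoter responds to interferon and is not limited to myeloid progenitors. Neither the agent that induced it nor the age of the mice is stated by the labels. The control of the preGM stage has 2 normal alleles and that of the GMP stage 1, and the same 3 animals gave the fl/p30 preGMs and GMPs, so that 12 animals gave the 15 arrays.

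Gimap proteins share a GTP-binding domain of the AIG1 type, and their genes lie side by side in a single cluster. They are known above all from lymphocytes, where several members are needed for the survival of T and B cells, and some are also expressed in blood stem and progenitor cells. Gimap5 is the member whose loss causes lymphopenia in rats and mice, Gimap1 is required for mature lymphocytes, Gimap4 has been linked to lymphocyte death, and Gimap6 binds the autophagy protein Gabarapl2.

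Values are log2 expression levels after RMA, so that a difference of 1 is a doubling. The median over all genes lay between 6.27 and 6.40 in the 15 arrays, and levels below it may lie near background, where a difference can understate the change and no fold is given. Gimap9 lay above its array's gene median in 15 of 15 arrays, Gimap1 in 14 and Gimap6 in 13. Gimap4 did so in 4 arrays, Gimap7 in 1, and Gimap3, Gimap5 and Gimap8 in 0. The results thus turn on Gimap6, Gimap9 and Gimap1, and those of the other 5 members rest on weak signals.

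The labelled populations were checked against their markers. Elane, the neutrophil elastase gene of GMPs, ranged from 8.19 to 8.98 in preGM +/+ and from 10.9 to 11.7 in GMP fl/+, while it stayed between 5.36 and 5.61 in preGM fl/p30. Fcgr3, an Fcγ receptor gene, ranged from 6.12 to 7.18 over the preGM arrays and from 9.01 to 9.70 over the GMP arrays. The GMP arrays of both mutants were uneven in Elane, with values by replicate of 10.6, 7.34 and 9.56 under the BRM2 allele, and of 6.47, 8.98 and 10.8 under p30. The group spread was largest in GMP fl/+ (0.319, as the root mean square over genes of the SD) and smallest in preGM +/+ (0.165).

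**Figure D1:**
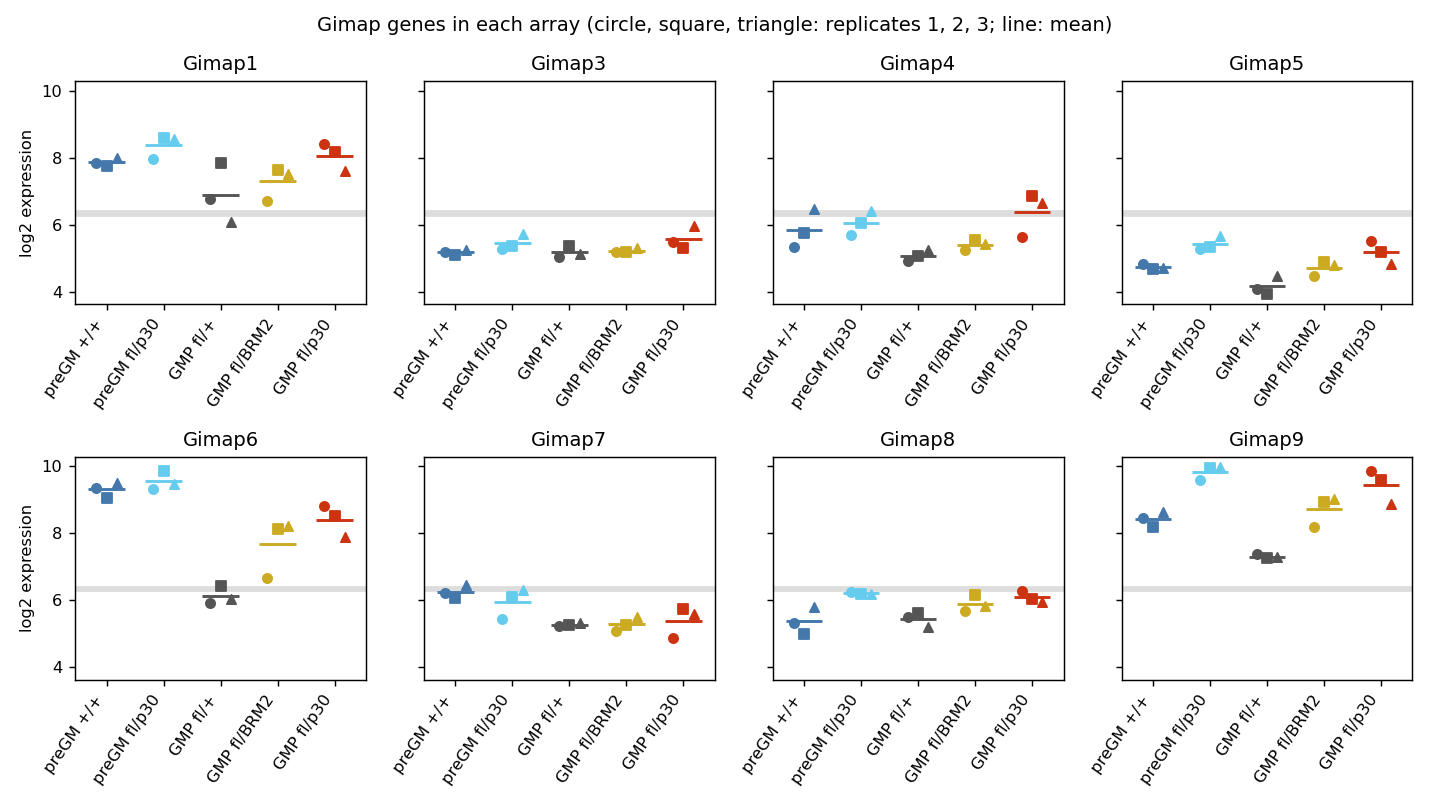
Log2 expression (y axis) of the 8 Gimap genes in each of the 15 arrays, by group (x axis). Points are arrays, short lines are group means and the grey band is the range of the arrays' gene medians. Gimap6 is at 5.92 to 6.42 in GMP fl/+, below every array of the other 4 groups, and the 3 GMP fl/+ arrays are also the lowest for Gimap9.

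Gimap6 was at 9.37, 9.06 and 9.52 in preGM +/+ and at 5.92, 6.42 and 6.04 in GMP fl/+. The control GMPs thus stood at the level of the array median and did not overlap the control preGMs. The difference was -3.19 ± 0.34 (log2, SE, n = 3 arrays per group), and it chose the family. In the same contrast 6 of 8 members had a negative difference, with -1.12 ± 0.24 for Gimap9, -0.97 ± 0.36 for Gimap1, -0.98 ± 0.23 for Gimap7, -0.78 ± 0.31 for Gimap4 and -0.57 ± 0.18 for Gimap5. Gimap3 and Gimap8 stood at 0.01 and 0.07. Of these, 5 (Gimap4, Gimap5, Gimap6, Gimap7 and Gimap9) were lower without overlap of the arrays, in a contrast where 12.9% of all genes were lower without overlap and 10.2% of all genes passed the threshold. The controls of the stages also differ by 1 Cebpa allele, which cannot be told apart from the stage here.

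Gimap6 in the mutant GMP groups lay between those control levels, and in the mutant preGMs at the level of the control preGMs. In preGM fl/p30 it was at 9.31, 9.87 and 9.49. GMPs of that genotype had 8.83, 8.52 and 7.89, and GMP fl/BRM2 had 6.68, 8.12 and 8.22. From highest to lowest the group means were 9.56 ± 0.29 (SD, n = 3) in preGM fl/p30, 9.32 ± 0.23 in preGM +/+, 8.41 ± 0.48 in GMP fl/p30, then 7.67 ± 0.86 in GMP fl/BRM2, and 6.13 ± 0.26 in GMP fl/+. Neighbouring groups in this order overlapped for the 2 preGM groups and for the 2 mutant GMP groups, and not at the other steps. Against GMP fl/+ the difference was 2.29 ± 0.34 for fl/p30 and 1.54 ± 0.34 for fl/BRM2 (2.04 without GMP fl/BRM2 replicate 1, the low array), and against preGM +/+ it was 0.24 ± 0.34 for preGM fl/p30. These 3 values set mutants against groups that the choice of Gimap6 used, so they are given without a test. In sorted bulk samples, fewer cells that express a gene and less RNA per cell cannot be told apart.

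The difference from preGM to GMP in the p30 mice used none of the arrays behind that choice. Its SE, interval and adjusted p rest on a spread estimated over all arrays, those behind the choice included. That fit did not pair the arrays by animal. Gimap6 was lower at the GMP stage in 3 of 3 animals, by -0.48, -1.35 and -1.60. The groups did not overlap (7.72% of all genes were lower without overlap), with a mean difference of -1.14 ± 0.34 (95% interval -1.87 to -0.41, adjusted p = 0.156 by limma over all genes), which did not pass the threshold of 0.05. Gimap7 was also lower in 3 of 3 animals (-0.59, -0.35 and -0.72), with a mean of -0.56 ± 0.23 (adjusted p = 0.322). Gimap9 changed by 0.27, -0.36 and -1.10 and Gimap1 by 0.45, -0.42 and -0.96, so that animals disagreed in sign. For Gimap9 the mean was -0.40 ± 0.24 (95% interval -0.91 to 0.12) and for Gimap1 -0.31 ± 0.36 (95% interval -1.09 to 0.47). None of the 8 members was called by limma in this comparison, in which 0.642% of all genes were called. At an unadjusted p under 0.05 there were 2 of 8, Gimap6 and Gimap7, where 12.4% of all genes were. With array weights limma called 1 of 8, Gimap6 (adjusted p = 0.019), and 9.77% of all genes. Gimap6 was also called without GMP fl/BRM2 replicate 1, an array of neither group (adjusted p = 0.0358). It was not called in a limma fit of the 6 arrays compared (adjusted p = 0.147). With the animal in the limma model 0 of 8 members were called, where 172 of the 19937 genes were. Gimap6 then had an adjusted p of 0.153 and Gimap7 one of 0.0836. The median difference of the 8 members was -0.28, against 0.03 over all genes. The stage differences of Gimap6 in control and p30 mice, -3.19 and -1.14, stand side by side here; their difference was not tested because the first chose the gene.

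**Figure D2:**
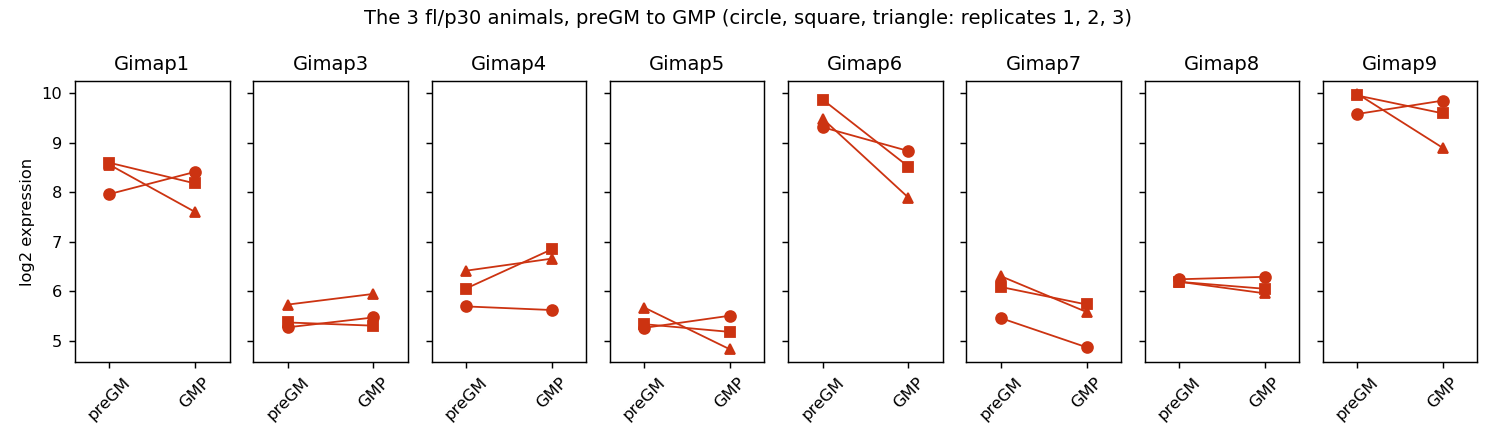
Log2 expression (y axis) of each Gimap gene in preGMs and GMPs (x axis) of the 3 fl/p30 animals, joined by lines. Gimap6 and Gimap7 go down in all 3 animals, while Gimap1, Gimap5, Gimap8 and Gimap9 go up in the first animal and down in the others.

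Mutant p30 GMPs were compared with GMP fl/+, the heterozygous control. Gimap9 was at 7.38, 7.26 and 7.28 in GMP fl/+ and at 9.85, 9.59 and 8.89 in GMP fl/p30. The lowest mutant array thus lay well over the highest control array. Gimap9 rose 4.40-fold (2.14 ± 0.24, adjusted p = 0.000139), and it was called with any 1 of the 15 arrays left out, at 1.94 to 2.42. Gimap5 was at 4.09, 3.93 and 4.47 in the control and at 5.51, 5.18 and 4.83 in the mutant, below the array median throughout. It rose by 1.01 ± 0.18 (adjusted p = 0.00477), also with any array left out, but not in a fit of the 6 arrays alone (adjusted p = 0.108).

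Gimap4 rose by 1.30 ± 0.31 (adjusted p = 0.0226), from 4.91, 5.07 and 5.26 to 5.62, 6.85 and 6.66. Leaving out replicate 2 of GMP fl/+ ended this call (adjusted p = 0.0627), as did leaving out replicate 2 (0.102) or 3 (0.058) of GMP fl/p30, and so did a fit of the 6 arrays alone (0.148). Gimap8, which holds more than a single GTP-binding domain, rose by 0.66 ± 0.18, with an adjusted p of 0.05 that lies just under the threshold before rounding. It lost the call in 10 of the 15 leave-outs, 4 of them arrays of these groups: replicates 2 and 3 of the control and 1 and 2 of the mutant, with adjusted p from 0.0611 to 0.185. The other 6 were preGM +/+ replicate 1, all 3 of preGM fl/p30 and replicates 1 and 3 of GMP fl/BRM2, with 0.0538 to 0.0702. Gimap1 was at 6.78, 7.83 and 6.08 in GMP fl/+ and at 8.41, 8.18 and 7.60 in GMP fl/p30. A single control array overlapped the mutant ones, and the difference of 1.17 ± 0.36 did not pass (95% interval 0.39 to 1.94, adjusted p = 0.0772). Without that array, GMP fl/+ replicate 2, it was 1.63 (adjusted p = 0.00961), and leaving out replicate 3 of the mutant also brought it past the threshold (0.0461), as did array weights (1.67, adjusted p = 0.000876), with which 20.4% of all genes were called. Gimap3 differed by 0.40 ± 0.16 (adjusted p = 0.171) and Gimap7 by 0.13 ± 0.23 (adjusted p = 0.821).

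Of the 7 members other than Gimap6, 4 were thus called higher, 0 lower and 3 did not pass, where 6.06% of all genes were called and 4.69% were called higher. The 4 called members were also those without overlap, where 9.16% of all genes were higher without overlap. The median difference of the 7 was 1.01, against -0.04 over all genes. With replicate 2 of the mutant left out the count was 2, and it was 1 in the 6 arrays alone. Without GMP fl/+ replicate 1 the count stayed at 4, while 3078 of the 19937 genes were called instead of 1209. GMP fl/+ is the group in which Gimap6 was seen to be low, so these values share that group with the choice of the family.

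**Figure D3:**
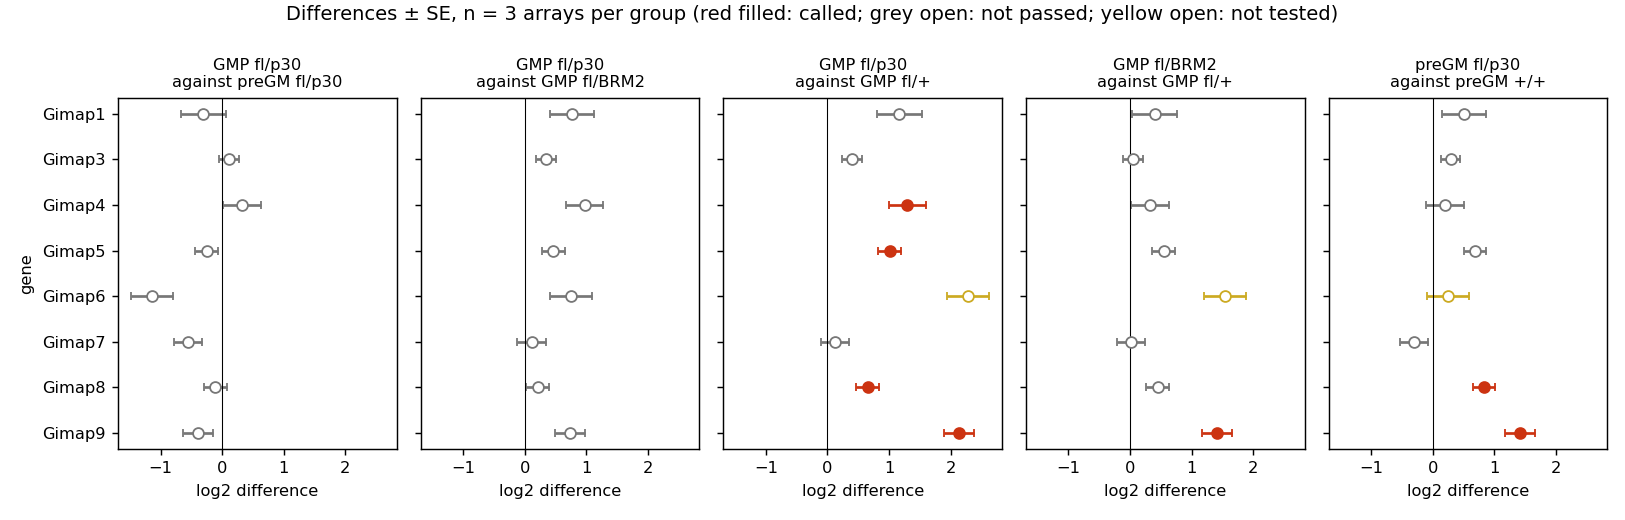
Log2 differences (x axis) with SE for each Gimap gene (y axis) in 5 comparisons, n = 3 arrays per group. Red filled points passed an adjusted p of 0.05, grey open points did not, and yellow open points are Gimap6 against the groups behind its choice. Gimap9 passes in each comparison of a mutant with its control, at 2.14, 1.41 and 1.41.

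The BRM2 allele was set against the same GMP fl/+ arrays, so this comparison is not independent of the last. Gimap9 was at 8.19, 8.94 and 9.03 in GMP fl/BRM2, again without overlap with the control. It rose 2.66-fold (1.41 ± 0.24, adjusted p = 0.00639). Without replicate 2 of the mutant it fell just short (adjusted p = 0.0502), leaving 0 calls, and in the 6 arrays alone (0.0515). The other 6 members tested did not pass. Of these, Gimap5 was at 0.54 ± 0.18 (adjusted p = 0.156) and Gimap8 at 0.45 ± 0.18 (0.257), and Gimap1 was at 0.40 ± 0.36 (95% interval -0.38 to 1.18). Gimap4, Gimap7 and Gimap3 differed by 0.33 ± 0.31, 0.02 ± 0.23 and 0.05 ± 0.16. Thus 1 of 7 members was called, where 2.53% of all genes were called and 1.89% were called higher. That share hung on the control arrays. Without GMP fl/+ replicate 1 the count stayed at 1, while 2218 of the 19937 genes were called instead of 505. Gimap8 and Gimap9 were higher without overlap, as were 6.74% of all genes. The median difference of the 7 was 0.40 against -0.02 over all genes.

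In preGMs the p30 genotype was compared with preGM +/+, the other group behind the choice of the family, so these values share that group with the choice. Gimap9 was at 8.45, 8.20 and 8.64 in the wild type and at 9.58, 9.95 and 9.99 in fl/p30, again without overlap. It rose 2.66-fold (1.41 ± 0.24, adjusted p = 0.00883), with the call lost without preGM +/+ replicate 2 (adjusted p = 0.0587). Gimap8 rose by 0.83 ± 0.18 (adjusted p = 0.0348), from 5.33, 5.01 and 5.79 to 6.24, 6.19 and 6.19, all below the array median. Of the 6 arrays compared, preGM +/+ replicate 3 was the only one whose removal kept that call (1.04, adjusted p = 0.0142), while without any other of them the adjusted p ran from 0.0806 to 0.168. Omitting an array of neither group, replicate 3 of GMP fl/BRM2, also ended it (0.0533). Gimap5 was higher without overlap, by 0.69 ± 0.18, and did not pass (adjusted p = 0.0881). It did so in the 6 arrays alone (0.0147) and, narrowly, with GMP fl/p30 replicate 1 left out of the fit (0.0484). Gimap1 was at 0.51 ± 0.36 (95% interval -0.27 to 1.28), Gimap3 at 0.29 ± 0.16, Gimap4 at 0.20 ± 0.31 and Gimap7 at -0.30 ± 0.23. In all, 2 of 7 members were called higher, where 1.68% of all genes were called and 0.647% were called higher, and the median difference was 0.51 against 0.03 over all genes. Gimap3, Gimap5, Gimap8 and Gimap9 were higher without overlap, as were 12.4% of all genes. Leaving out preGM +/+ replicate 1, any 1 array of preGM fl/p30 or GMP fl/BRM2 replicate 3 gave a count of 1, preGM +/+ replicate 2 gave 0 and GMP fl/p30 replicate 1 gave 3.

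The mutant alleles were then compared at the GMP stage, in groups that played no part in the choice of the family. The spread was again estimated over all arrays, those behind the choice included. All 8 differences of GMP fl/p30 against GMP fl/BRM2 were positive, from 0.11 ± 0.23 for Gimap7 to 0.97 ± 0.31 for Gimap4. Gimap6 differed by 0.74 ± 0.34 (95% interval 0.01 to 1.47), Gimap1 by 0.77 ± 0.36 (95% interval -0.01 to 1.55) and Gimap9 by 0.73 ± 0.24 (95% interval 0.21 to 1.25). None of the 8 was called by limma (adjusted p = 1 for each), while 5 of 8 had an unadjusted p under 0.05, as had 3.45% of all genes. Of all genes 1 was called here (0.00502%). Gimap3 and Gimap4 were higher without overlap, as were 4.67% of all genes, and limma with array weights called 1 member, Gimap4 (adjusted p = 0.00636), among 1.42% of all genes. Without GMP fl/BRM2 replicate 1 the Gimap6 difference was 0.25, and without GMP fl/p30 replicate 2 that of Gimap7 was -0.06. The median difference of the 8 was 0.60, against -0.01 over all genes.

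The members also differed in how they varied within groups. Gimap6 and Gimap9 were both lowest in replicate 3 among the GMP fl/p30 arrays (7.89 and 8.89) and in replicate 1 among GMP fl/BRM2 (6.68 and 8.19). Their deviations from the group means correlated at r = 0.88 over the 15 arrays, and r over the levels themselves was 0.79. Gimap5 and Gimap9 had the highest correlation of levels (r = 0.95; 0.73 for the deviations). Gimap4 and Gimap7 formed another pair, at r = 0.83 for the deviations, and Gimap3 and Gimap9 stood at -0.24. Of the 28 pairs of members 27 had a positive r of levels (median 0.58) and 21 a positive r of deviations (median 0.15). These values describe 15 arrays that share groups and, in p30 mice, animals.

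Elane and the other GMP markers are set beside these levels. Among the 3 GMP fl/p30 arrays Elane was 6.47, 8.98 and 10.8 where Gimap6 was 8.83, 8.52 and 7.89. In GMP fl/BRM2 Elane was 10.6, 7.34 and 9.56 where Gimap6 was 6.68, 8.12 and 8.22, so the array with the most Elane had the least Gimap6 in each mutant, while the other 2 fl/BRM2 arrays differed in Elane and hardly in Gimap6. In preGMs Elane had a mean of 8.58 in +/+ and 5.50 in fl/p30, with Gimap6 at 9.32 and 9.56. The mean level of 14 measured GMP markers ranged from 9.70 to 10.04 in GMP fl/+, from 8.52 to 9.55 in GMP fl/BRM2 and from 8.36 to 9.76 in GMP fl/p30. In preGMs it ranged from 8.75 to 8.96 in +/+ and from 7.87 to 8.07 in fl/p30. Between GMP fl/p30 and GMP fl/+, 3 of the 14 fell, Irf8 (-1.72), Csf3r (-1.32) and Gfi1 (-0.82), and 1 rose. In GMP fl/BRM2 2 fell (Irf8 -1.44, Csf3r -1.36), and in preGM fl/p30 2 fell. Over all genes 6.06% were called with p30 against GMP fl/+ (4.69% higher) and 2.53% with BRM2 (1.89% higher). Between the preGM groups 1.68% were called (0.647% higher). The part of the GMP markers in the Gimap differences was not tested.

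**Figure D4:**
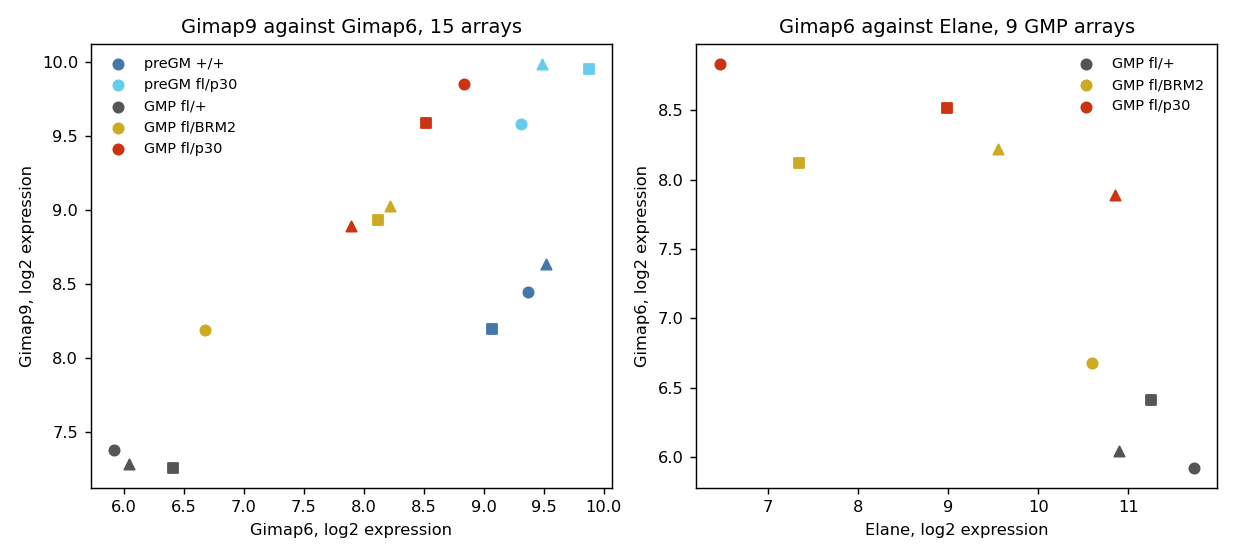
Left, Gimap9 against Gimap6 (log2 expression) in the 15 arrays; right, Gimap6 against Elane in the 9 GMP arrays, coloured by group and shaped by replicate. On the left the 3 preGM +/+ arrays have Gimap6 above 9 with Gimap9 at 8.20 to 8.64; on the right GMP fl/+ lies at Elane 10.9 or more with Gimap6 at 6.42 or less.

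Gimap genes are abundant in lymphocytes, so lymphoid markers were set beside them. T cell markers (14 genes) had mean levels of 5.70 to 5.84 in preGM +/+ and 5.90 to 5.92 in preGM fl/p30. Their means were 5.66 to 5.82 in GMP fl/+, 5.86 to 5.98 in GMP fl/BRM2 and 6.00 to 6.19 in GMP fl/p30. In each group 2 or 3 of the 14 lay above the array median in all 3 arrays. Between GMP fl/p30 and GMP fl/+, 2 of the 14 rose, Lat (2.04) and Cd3g (0.96), and Lat also rose in GMP fl/BRM2 (1.86). Of all genes 4.69% were called higher with p30 and 1.89% with BRM2. Lat was bright, with means of 9.44 in GMP fl/p30, 9.25 in GMP fl/BRM2, 9.54 in preGM fl/p30 and 7.39 in GMP fl/+. Of the CD3 genes of the T cell receptor complex, Cd3d and Cd3g were below the array median in every array. Cd3g had a mean of 5.13 in GMP fl/p30 and 4.17 in GMP fl/+, and Cd3d one of 4.83 (up to 5.91) and 4.16. Cd3e was above the median in 1 array each of GMP fl/+ and GMP fl/BRM2, with means of 6.31 in GMP fl/+ and 6.17 in GMP fl/p30. NK markers (10 genes) had mean levels of 5.57 to 5.87 in preGM +/+, 5.70 to 5.81 in preGM fl/p30, 5.65 to 5.73 in GMP fl/+, 5.60 to 5.62 in GMP fl/BRM2 and 5.69 to 6.15 in GMP fl/p30. Of these genes 1, Klrd1, rose in GMP fl/p30 (0.68, adjusted p = 0.0484). Between the preGM groups 2 T cell genes rose and 1 fell, and limma called 0 NK genes (0 at an unadjusted p under 0.05). Of all genes 1.68% were called there. Between GMP fl/p30 and GMP fl/BRM2 limma called 0 genes of either list. At an unadjusted p under 0.05 there were 5 of 10 NK genes and 2 of 14 T cell genes, where 3.45% of all genes were. The NK list's median difference was 0.347 there, against -0.007 over all genes. The brightest genes of the NK list were Nkg7, with means of 10.967 to 10.997 in the GMP groups, and Prf1, with 6.57 to 6.70. The NK receptor gene Ncr1 was below the array median throughout.

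B lymphoid markers (13 genes) stood apart in 1 array, preGM +/+ replicate 3, at a mean of 8.07 against 6.50 and 6.55 in the other 2. The other groups ranged from 6.53 to 6.85 in preGM fl/p30, 5.71 to 5.90 in GMP fl/+, 5.79 to 6.40 in GMP fl/BRM2 and 5.93 to 6.10 in GMP fl/p30. That array was also the highest of its group for 7 of the 8 members, all but Gimap5. The gap was widest for Gimap4 (6.46 against 5.35 and 5.75), and Gimap6 was at 9.52 there against 9.37 and 9.06. Without it the preGM difference of Gimap9 was 1.52 (adjusted p = 0.0236 by limma) and that of Gimap4 0.51 (adjusted p = 0.535). Of the B cell receptor genes, Cd79b was above the array median in every array, with group means of 7.88 to 8.31. Cd79a was above it in 1 array, of preGM +/+. The lymphoid gene Il7r ranged from 6.05 to 6.40 in GMP fl/p30, 5.11 to 5.32 in GMP fl/BRM2 and 4.64 to 4.94 in GMP fl/+. In preGMs the mean of Il7r was 7.06 in +/+ and 6.37 in fl/p30. Dntt, the DNA polymerase of lymphocyte precursors, was the 1 B lymphoid gene called among GMPs, higher than in fl/+ with p30 (1.45) and with BRM2 (1.89), and it fell from preGM to GMP in p30 mice (-4.303). Of 15 stem and multipotent markers, 2 fell at that step, Flt3 (-2.695) and Hlf (-1.15). Against GMP fl/+, 3 rose and 1 fell in fl/p30, led by Gata2 (1.93). In fl/BRM2 2 rose and 1 fell, and in preGM fl/p30 3 fell. Over all genes 6.06%, 2.53% and 1.68% were called in those comparisons, and 0.642% at the p30 step. Mean levels of the 15 markers were 7.70 to 7.89 in preGM +/+ and 7.24 to 7.53 in preGM fl/p30. In GMPs they were 6.79 to 6.81 in fl/+, 6.80 to 7.08 in fl/BRM2 and 6.87 to 7.08 in fl/p30. Among 13 endothelial markers Pecam1 was the 1 gene called in mutant GMPs (1.502 with p30, 1.35 with BRM2). Of all genes 6.06% were called with p30 and 2.53% with BRM2. In preGM fl/p30 2 other endothelial genes fell, where 1.68% of all genes were called. Cdh5, the defining endothelial cadherin, stayed below the array median in every array. The mean level of that list ranged from 6.60 to 6.62 in preGM +/+, 6.38 to 6.58 in preGM fl/p30, 6.23 to 6.25 in GMP fl/+, 6.32 to 6.43 in GMP fl/BRM2 and 6.32 to 6.49 in GMP fl/p30. The part of these genes in the Gimap differences was not tested.

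The 8 members are neighbours on chromosome 6, in the order Gimap8, Gimap9, Gimap4, Gimap6, Gimap7, Gimap1, Gimap5 and Gimap3, with 0 other measured genes between them (RefSeq, GRCm38.p6). Gimap6 and Gimap3 lie on the minus strand and the other 6 on the plus strand. Among the 4 nearest measured genes on each side, Tmem176b and Tmem176a, a pair of membrane protein genes next to Gimap3, rose in GMP fl/p30 against GMP fl/+ by 0.97 ± 0.23 (adjusted p = 0.0205) and 0.66 ± 0.18 (0.0487). Tmem176b also rose in GMP fl/BRM2, by 0.98 ± 0.23 (adjusted p = 0.0334 by limma). Over all genes 4.69% were called higher with p30 and 1.89% with BRM2. Tmem176b was lowest in GMP fl/+ replicate 2 (7.995) and at 9.07 and 8.68 in the other 2 control arrays, against 9.27 to 9.94 in GMP fl/p30. Next to Gimap8 on the other side, AI854703, Zfp775, Repin1 and Gm5111 differed by -0.06, -0.12, 0.25 and 0.34 in GMP fl/p30, and none of them passed (adjusted p from 0.201 to 0.798). Beyond Tmem176a, Gm7932 and Aoc1 stood at -0.15 and 0.05 (adjusted p = 0.601 and 0.915). Between the preGM groups the smallest adjusted p among the 8 flanking genes was 0.184. Within the cluster, Gimap7 at 0.13 ± 0.23 lay between Gimap6 (2.29 ± 0.34) and Gimap1 (1.17 ± 0.36).

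**Figure D5:**
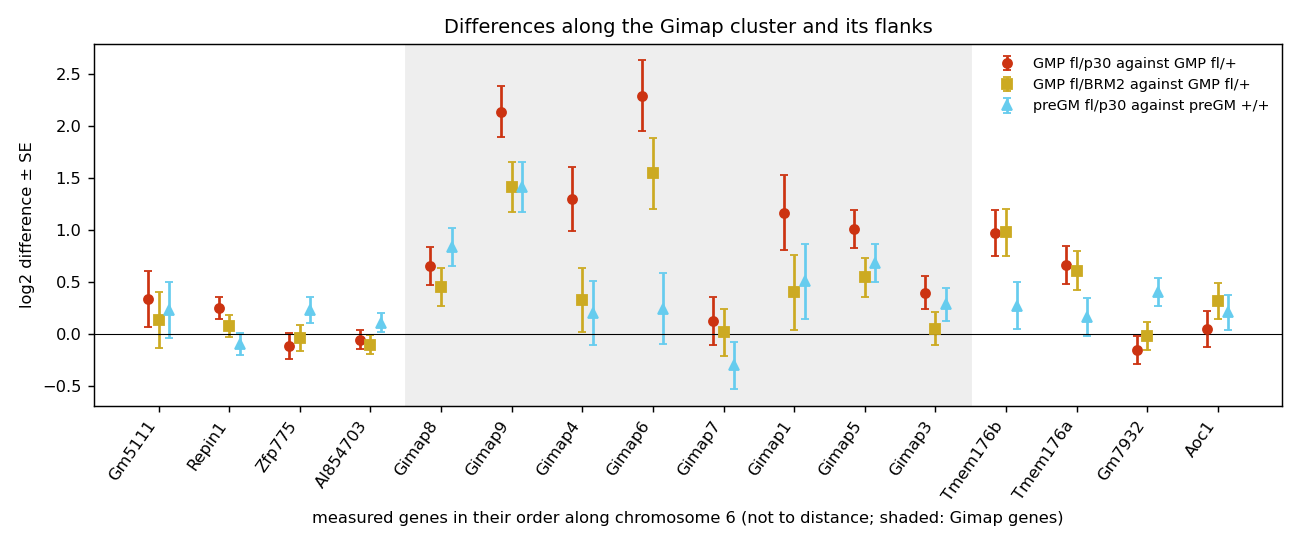
Log2 differences with SE (y axis) of the measured genes in their order along chromosome 6 (x axis, not to distance; shaded: the 8 Gimap genes), n = 3 arrays per group. Against GMP fl/+, a group behind the choice of Gimap6, differences of both mutants peak at Gimap9 and Gimap6. Gimap7 lies near 0 there, between Gimap6 and Gimap1, and Tmem176b has the largest values of the flanking genes (0.97 and 0.98). Between the preGM groups Gimap9 is at 1.41, Gimap6 at 0.24 and Gimap7 at -0.30.

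The promoter windows of the 3 members with levels above the array median in most arrays are shown. Each runs from 250 bases before to 50 after a RefSeq start site (GRCm38.p6), 5′ to 3′ on the gene's own strand, at chr6:48708195-48708494 on the minus strand for Gimap6, chr6:48675885-48676184 on the plus strand for Gimap9 and chr6:48738797-48739096 on the plus strand for Gimap1. Capitals mark matches to the motifs searched.
Gimap6: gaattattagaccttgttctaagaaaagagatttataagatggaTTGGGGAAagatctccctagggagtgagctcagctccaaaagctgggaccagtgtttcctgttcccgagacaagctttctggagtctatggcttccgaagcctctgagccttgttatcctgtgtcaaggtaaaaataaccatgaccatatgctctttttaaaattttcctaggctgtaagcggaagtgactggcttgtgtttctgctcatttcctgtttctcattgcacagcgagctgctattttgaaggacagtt
Gimap9: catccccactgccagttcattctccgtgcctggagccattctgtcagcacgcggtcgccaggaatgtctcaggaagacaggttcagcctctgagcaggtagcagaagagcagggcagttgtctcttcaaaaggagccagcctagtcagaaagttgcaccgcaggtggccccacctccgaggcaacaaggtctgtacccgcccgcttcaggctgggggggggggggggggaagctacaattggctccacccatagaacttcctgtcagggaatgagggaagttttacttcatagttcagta
Gimap1: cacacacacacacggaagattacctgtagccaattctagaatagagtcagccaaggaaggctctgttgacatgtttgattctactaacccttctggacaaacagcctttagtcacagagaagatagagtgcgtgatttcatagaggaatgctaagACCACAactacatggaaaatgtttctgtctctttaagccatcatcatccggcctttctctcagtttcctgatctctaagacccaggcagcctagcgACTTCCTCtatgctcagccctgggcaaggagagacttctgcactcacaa

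Motifs were searched on both strands in the 9 windows of the 8 members and in all 32851 promoter windows of that length. A C/EBP form TTGCNNAA was in the window of 1 member, Gimap7, and in 10.8% of all windows. A looser form, TTNNGNAA, which overlaps the first at that Gimap7 site, was found for 5 members (Gimap4, Gimap5, Gimap6, Gimap7 and Gimap8) and in 40.7% of all windows. In Gimap6 its match is TTGGGGAA, whose first base is at -206 from the start site. The RUNX motif TGTGGT was found for Gimap1, Gimap4 and Gimap7 (16.8% of all windows) and the PU.1 motif GAGGAAGT for Gimap1 (3.2%), where it is the second run of capitals and reads ACTTCCTC on the strand shown. The GATA motif AGATAA (11.2% of all windows) and the ETS motif CCGGAAGT (3.89%) were in 0 of the 9. The Gimap9 window held none of the 6 motifs. It had the highest GC content of the 9 windows, 57.3% with 8 CpG sites, where that of Gimap6 had 43.3% with 4 and the median of all windows was 52.7% with 7.

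Genes most like Gimap6 were sought over the 15 arrays among 5987 others with a range of at least 1. The 5 non-members with the highest Pearson r were the zinc finger gene Zfp760 (0.97), the copper transporter gene Atp7a (0.97), P2ry14 (0.95), which encodes a receptor for UDP sugars, Spata6 (0.95) and Cmah (0.95), an enzyme gene of sialic acid synthesis. P2ry14 had group means of 9.08 in preGM +/+, 9.52 in preGM fl/p30, 7.16 in GMP fl/+, 8.54 in GMP fl/BRM2 and 8.67 in GMP fl/p30. Cmah stood at 5.29 in GMP fl/+ against 7.14 in GMP fl/p30 and 7.73 in preGM +/+. Among members, Gimap1 was the most like Gimap6 (r = 0.83, rank 243), followed by Gimap9 (0.79, rank 368), Gimap5 (0.78, rank 403), Gimap7 (0.68, rank 853), Gimap4 (0.59, rank 1252) and Gimap8 (0.41, rank 2108). Gimap3, with a range under 1, was at 0.26.

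Gabarapl2, which encodes the ATG8-type protein that Gimap6 binds, was at 8.06, 6.81 and 7.60 in GMP fl/+. Its levels were 8.71, 8.50 and 8.59 with p30 and 8.33, 8.51 and 8.57 with BRM2, none of them overlapping the control. It rose in each mutant, by 1.11 ± 0.22 in fl/p30 (adjusted p = 0.00924) and by 0.98 ± 0.22 in fl/BRM2 (adjusted p = 0.0324). Of the 13 autophagy genes listed with it, 4 rose in GMP fl/p30, among them Sqstm1 (1.52) and Map1lc3b (1.13). In GMP fl/BRM2 1 rose, Gabarapl2 itself. Of all genes 4.69% were called higher with p30 and 1.89% with BRM2. None of the 13 was called by limma at the step from preGM to GMP in p30 mice or between the preGM groups. At an unadjusted p under 0.05 there were 2 at the p30 step, where 12.4% of all genes were, and 0 between the preGM groups. The list's median was 0.52 in GMP fl/p30 against GMP fl/+, against -0.04 over all genes. The control arrays were uneven in this list, with mean levels by replicate of 8.435, 7.86 and 8.052. Those of GMP fl/p30 ran from 8.461 to 8.572 and those of GMP fl/BRM2 from 8.369 to 8.419.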

How the data were processed

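Expression was measured in 15 samples on Affymetrix mouse arrays. The authors deposited log2 values, for which the submitters' processing notes list affy and RMA; versions and filters were not given in the sources used here. Of 34760 probe sets, 21640 had 1 gene symbol in the platform annotation, 1321 several and 11799 none; each gene kept its probe set of highest average level, giving 19937 genes, of which 19855 matched RefSeq (GRCm38.p6) by Entrez ID. Array number, 3 per group, limits the precision, and arrays have no read depth. Replicate arrays correlated across genes at 0.968 to 0.994. Gimap genes are paralogs, and cross-hybridization between their probes was not checked.

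With limma 3.58.1, a model with 1 mean per group was fitted to the 15 arrays (R 4.3.3, df 10 residual, 4.24 prior). Benjamini-Hochberg adjustment ran over all genes of each comparison, with calls under 0.05; ± is the SE unless marked SD. The groups differ in spread, which 1 shared estimate per gene does not follow. The script was tested on simulated data.

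Gimap6 was not tested against groups used in its choice. The members and gene lists were chosen with earlier results of these data known. Named genes were all members, the 4 nearest genes on each side and the 5 most like Gimap6. Up to 3 called genes per list were also named (else the 2 brightest). Gabarapl2, Cd3d, Cd3e, Cd79a, Cd79b, Il7r, Ncr1, Cdh5, Elane and Fcgr3 were added as defining genes after their values were seen. Same-animal fl/p30 arrays deviated together across genes at r = 0.334, 0.32 and 0.116; the animal numbers of the labels give this pairing. Alternatives were single arrays left out, other probe set, filter, scaling, weighting and spread choices, and a replicate block.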

Additional observations from a re-analysis of the deposited data

How the results depend on the processing

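The 5 counts of called members were each recomputed under 24 alternatives. Of the 120 values 103 stayed within 1.5 times, 14 were lower and 3 higher. Not every alternative could move a count much. With 1 probe set per member, averaging probe sets left each member's difference as it was. So did leaving out an array of neither group compared, which changed only the spread estimate and the adjusted p. With array weights 1 member was called instead of 0 in the p30 stage step and 1 instead of 0 between the mutants; it was 5 in GMP fl/p30 against fl/+ (Gimap1 added) and 3 in preGMs (Gimap5 added, adjusted p = 0.00755). That setting called 1.42% to 20.4% of all genes over the 5 comparisons. Leaving out dim genes, which removes Gimap3, Gimap5, Gimap7 and Gimap8 from the test, gave 2 of the remaining members in GMP fl/p30 against fl/+ and 1 in the preGM comparison. The 6 arrays alone gave 1 in GMP fl/p30 and 0 in GMP fl/BRM2 against fl/+. A minimum difference of 1 gave 1 in preGMs. With single arrays left out the counts ran from 0 to 1 (p30 stage step), 0 to 0 (p30 against BRM2), 2 to 4 (GMP fl/p30 against fl/+), 0 to 1 (GMP fl/BRM2 against fl/+) and 0 to 3 (preGMs). With the animal as a replicate block the p30 stage step had 0 calls, as without it. The replicate numbers of the other groups mark no shared animal; with them as a block the count was 1 in preGMs, where Gimap8 lost its call (adjusted p = 0.0698), 3 in GMP fl/p30 against fl/+ (Gimap8 at 0.0782), 1 in GMP fl/BRM2 and 0 between the mutants. Gimap6 in the control stage contrast ranged from -3.33 to -3.09 with single arrays left out. No called difference of a member changed sign in any alternative run. Of the 8 members, 5 lie below the array median in most arrays, and their differences are limited by signal over background.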

Other observations

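Another GTPase group of immunity is induced by interferon. Of 16 interferon-inducible GTPase genes listed, 9 were measured, and 2 of them rose in GMP fl/p30 against GMP fl/+. These were Irgm1, by 1.10 ± 0.21 (adjusted p = 0.00544 by limma), and Gbp7, by 0.75 ± 0.21 (0.0484). In that comparison 4.69% of all genes were called higher. In GMP fl/BRM2 none of the 9 passed in limma, with Irgm1 at 0.70 ± 0.21 (adjusted p = 0.0953) and Gbp7 at 0.60 ± 0.21 (0.173). At an unadjusted p under 0.05 there were 3 of 9, where 15% of all genes were. Mx2 fell by 0.94 from preGM to GMP in p30 mice (adjusted p = 0.0379 by limma), where 0.642% of all genes were called. Between the preGM groups 1 of the 9 rose and 1 fell, where 1.68% of all genes were called. The Mx1 gene itself, whose promoter drives the Cre, stayed below the array median in every array, at 5.07 to 6.06.

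Some members of the Bcl2 family have been reported to bind Gimap3 and Gimap5. Among 13 measured genes of that family 1 was called in GMP fl/p30 against GMP fl/+, where 6.06% of all genes were called. The called gene was Bcl2l11, which encodes the death-promoting protein Bim (0.69 ± 0.14, adjusted p = 0.00748 by limma). In GMP fl/BRM2, in preGM fl/p30 and at the p30 stage step 0 were called by limma. Of all genes 2.53%, 1.68% and 0.642% were called there. At an unadjusted p under 0.05 there were 3, 3 and 2, where 12.4% to 15% of all genes were. Bcl2 and Mcl1, which protect cells from death, differed by -0.20 ± 0.15 and -0.07 ± 0.11 in GMP fl/BRM2 and by -0.34 ± 0.15 and -0.27 ± 0.11 at the p30 stage step, without passing.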
